A study of Mus musculus with 12 samples.

Results

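The 8 genes described here encode voltage-gated sodium channels of the mouse: the pore subunits Scn1a, Scn2a, Scn3a, Scn8a and Scn9a, and the auxiliary beta subunits Scn2b, Scn3b and Scn4b. They were taken by symbol from the 52636 genes of each deposited count table, and all 8 passed the filter on low counts in both comparisons. Total RNA came from dentate gyri of C57BL/6 mice, with 12 libraries in all and 3 to a group. The 4 groups were KO, a knockout that the series title ties to Fst; WT; Fst vector, labelled OE with AAV9-CB::Fst; and GFP vector, which is KO with AAV9-CB::GFP. Fst encodes follistatin, a secreted protein that binds activins, and AAV9 is a viral vector used for gene delivery. The knockout is thus shared by the KO and GFP vector groups, while the sources used here give no genotype for the mice with the Fst vector. They also give neither the cells in which the knockout acts, nor the age of the mice, nor the time after vector delivery. The design text can mean 1 mouse or several to a library, and every p-value below rests on the spread from library to library alone.

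A voltage-gated sodium channel opens when a neuron is depolarized and carries the rising phase of the action potential. One large pore subunit forms the channel. Beta subunits are small membrane proteins with an immunoglobulin fold that alter gating, surface level and cell adhesion. In central neurons the channels are packed at the axon initial segment by ankyrin G. Granule cells of the dentate gyrus are known for sparse firing, and the threshold of their axon initial segment depends on these channels.

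Libraries held 8081824 to 11331337 counts, and levels below are CPM, counts scaled by those totals. Fst had 2, 4 and 2 counts in KO and 34, 33 and 51 in WT, and it had 2078, 1870 and 1497 counts in Fst vector and 0, 1 and 0 in GFP vector. Prox1, which defines granule cells, stood at 226 to 328 CPM in Fst vector and 324 to 367 CPM in GFP vector, and at 407 to 457 CPM in KO and 422 to 454 CPM in WT. Prox1 was therefore present in all 12 libraries. The markers of neocortex summed to 285 CPM in Fst F and to 370 and 367 CPM in GFP M2 and GFP F, against 118 to 145 CPM in the other 9. Most of that excess was Rprm, at 212, 305 and 305 CPM in those 3. Ribosomal RNA genes took 0.0115 to 0.0209% of counts in KO M2, WT F1, Fst M2, Fst F and GFP M2, and 0.00055 to 0.000976% in the other 7. Gfap, the astrocyte filament gene, reached 4864 CPM in GFP F, against 370 to 1555 CPM in the other 11. Libraries are named by their titles, M for male and F for female; the descriptions give another sex for the F1 and M2 libraries of KO and of WT. Values per library follow the order M1, F1, M2 in KO and WT, and M1, M2, F in both vector groups.

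On GRCm38, Scn1a (chr2:66270778-66440840, minus strand), Scn2a (chr2:65620771-65767447, plus), Scn3a (chr2:65457118-65567627, minus) and Scn9a (chr2:66480080-66634962, minus) lie in 1 cluster. Scn8a lies apart at chr15:100869858-101045938, plus strand. All 3 beta genes are on the plus strand of chromosome 9, Scn3b at chr9:40269217-40291618, Scn2b at chr9:45117782-45130070 and Scn4b at chr9:45138395-45154152. Scn2b ends 8324 bases before Scn4b begins. Exons overlap another annotated gene only in Scn9a, where the antisense gene Gm13629 covers 180 bases, 1.41% of the Scn9a exons, and had 0 to 8 counts. The windows from 250 bases before to 50 after the start sites of these neighbours, from RefSeq on GRCm38.p6, are printed because Scn4b separated the vector groups and Scn2b did not, as described below. Capitals mark the letters CAGAC or their reverse complement GTCTG, the short motif bound by SMAD factors, which act downstream of activins.
Scn4b (chr9:45138374-45138673, plus strand): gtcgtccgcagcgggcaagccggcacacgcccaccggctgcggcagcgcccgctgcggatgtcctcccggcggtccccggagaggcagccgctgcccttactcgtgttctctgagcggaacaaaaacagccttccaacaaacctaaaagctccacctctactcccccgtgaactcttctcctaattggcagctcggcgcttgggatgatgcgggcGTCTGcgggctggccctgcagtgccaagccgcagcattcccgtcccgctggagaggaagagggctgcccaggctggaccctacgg
Scn2b (chr9:45117626-45117925, plus strand): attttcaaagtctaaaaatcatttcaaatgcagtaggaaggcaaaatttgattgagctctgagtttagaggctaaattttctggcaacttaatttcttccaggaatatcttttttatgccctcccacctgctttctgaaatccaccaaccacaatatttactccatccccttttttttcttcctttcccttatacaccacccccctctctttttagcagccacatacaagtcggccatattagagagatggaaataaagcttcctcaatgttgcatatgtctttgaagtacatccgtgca
The Scn4b window held 1 match, 35 bases before the RefSeq start site, which lies downstream of the GENCODE gene start given above, and 66.3% of its bases were G or C. The Scn2b window held 0 matches and had 38.3% G and C, against a median of 52.7% over 32851 promoter windows. Of those windows 49.6% held CAGAC on either strand. GGCGCC (held by 11.9% of windows) and TGACG (20.8%), also sought on both strands, were in neither window. A match describes the letters and is not evidence of binding.

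Among the 8 genes, transcripts of Scn3b, Scn2b and Scn8a were the most abundant per length. Scaled per kilobase of exon, means over the 12 libraries were 57.5 CPM per kb for Scn3b, 50.0 for Scn2b, 25.0 for Scn8a, 21.1 for Scn2a, 10.1 for Scn3a, 6.24 for Scn1a, 0.993 for Scn4b and 0.578 for Scn9a. Each of these genes stood above the next one in 12 of 12 libraries, except Scn3b over Scn2b in 7 and Scn4b over Scn9a in 11. Across libraries the ranges of some neighbours overlapped: Scn3b (33.9 to 74.8) with Scn2b (42.9 to 58.3), Scn8a (14.5 to 31.0) with Scn2a (14.2 to 26.7), Scn3a (6.01 to 12.7) with Scn1a (4.57 to 7.65), and Scn4b (0.546 to 1.73) with Scn9a (0.217 to 1.01). Scn8a, known for its density at the axon initial segment and nodes of Ranvier, made up a median of 39.5% of the summed level of the 5 pore genes, range 35.4 to 42.7%. Scn2a, the main channel of unmyelinated axons of excitatory neurons, made up 34.0%. Scn3a, known as the pore subunit of the embryonic brain, made up 16.1%. Scn1a, best known from fast-spiking interneurons, made up 9.64%, and Scn9a, best known from sensory neurons of the periphery, 0.927%. Scn4b, whose cytoplasmic tail is tied to the resurgent sodium current, was 0.740% of the summed level of the 3 beta genes. In a bulk sample, fewer cells of a type and less RNA per cell cannot be told apart.

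**Figure D1:**
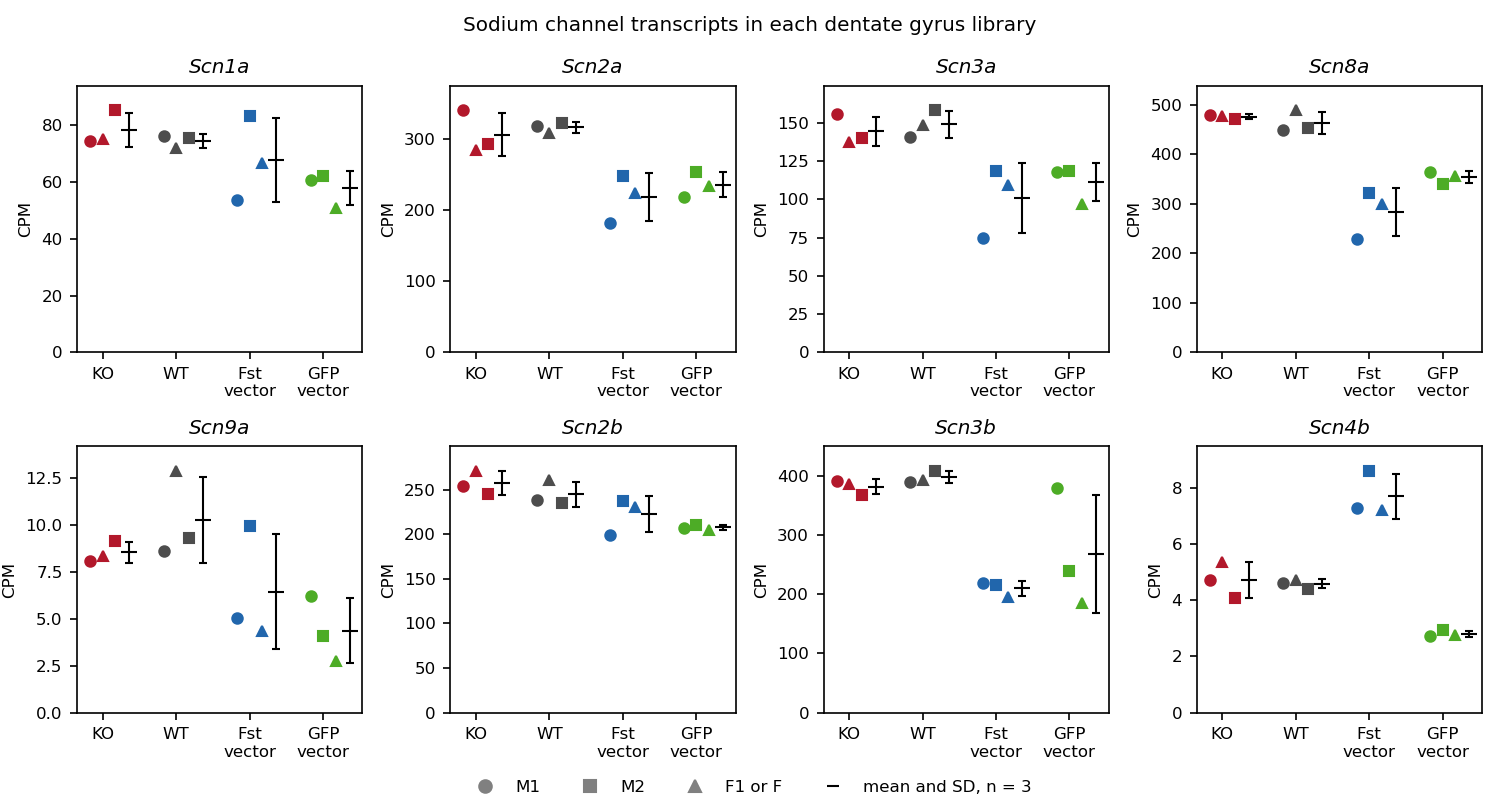
CPM of the 8 sodium channel genes in each library (vertical axes from 0, 1 scale per gene), with KO, WT, Fst vector and GFP vector from left to right; symbols give the replicate, and bars the mean and SD of 3 libraries. KO and WT points intermingle for all 8 genes, and for Scn4b the Fst vector points (7.20 to 8.61 CPM) lie above the GFP vector points (2.72 to 2.92 CPM).

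KO was set against WT to ask whether loss of Fst goes with a change in these channels. None of the 8 genes passed the test for a change, and their levels in KO and WT libraries overlapped for all 8. Of 14919 genes tested, 4 were called at an adjusted p under 0.05 by edgeR's quasi-likelihood test with Benjamini-Hochberg adjustment, 0.0268%. Unadjusted, 0 of the 8 had p under 0.05, against 5.96% of genes tested, and DESeq2, which called 0.0402%, called 0 of them as well. Groups did not overlap for 0 of the 8, against 11% of genes tested.

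Scn8a, the most abundant pore gene, had 480, 478 and 471 CPM in KO and 448, 489 and 453 CPM in WT. The KO libraries lay within the span of the WT libraries, and the fitted log2 difference was 0.06 ± 0.06 (SE, n = 3 each; edgeR adjusted p = 0.953). Scn2a had 340, 284 and 293 CPM in KO, against 318, 307 and 322 CPM in WT, a log2 difference of -0.03 ± 0.06. KO held both the highest and the lowest library for this gene. Scn3a had 156, 138 and 140 CPM in KO and 141, 148 and 158 CPM in WT (-0.03 ± 0.06). Its libraries interleaved. Scn1a had 74.3, 75.2 and 85.2 CPM in KO and 76.1, 71.8 and 75.4 CPM in WT (0.09 ± 0.07), and KO M2 alone stood above the others. The bounds of the 95% intervals put any change of these 4 genes between 0.899-fold and 1.18-fold. Scn9a, with 75 to 120 counts in these 6 libraries, had 8.06, 8.35 and 9.14 CPM in KO and 8.61, 12.9 and 9.27 CPM in WT. Its log2 difference was -0.24 ± 0.17 (edgeR adjusted p = 0.934), with an interval from 0.664-fold to 1.07-fold. The highest library, WT F1, was one of those with more ribosomal RNA.

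The beta genes were as close. Scn3b, which binds the pore subunit without a covalent bond, had 391, 385 and 367 CPM in KO and 390, 393 and 408 CPM in WT, a log2 difference of -0.04 ± 0.05. Scn2b, which is linked to the pore subunit by a disulfide bond, had 254, 271 and 245 CPM in KO and 238, 261 and 235 CPM in WT (0.09 ± 0.06). Both sets of libraries overlapped. Scn4b, also disulfide-linked, had 4.73, 5.35 and 4.06 CPM in KO and 4.62, 4.72 and 4.41 CPM in WT, from 40 to 50 counts in each library. Its log2 difference was 0.06 ± 0.22 (edgeR adjusted p = 0.991), so that a change between 0.766-fold and 1.41-fold could not be told from none at this depth. For Scn2b and Scn3b the intervals ran from 0.977-fold to 1.15-fold and from 0.899-fold to 1.05-fold. Over the 8 genes the median log2 difference was 0.01, and over all genes tested it was -0.00085.

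**Figure D2:**
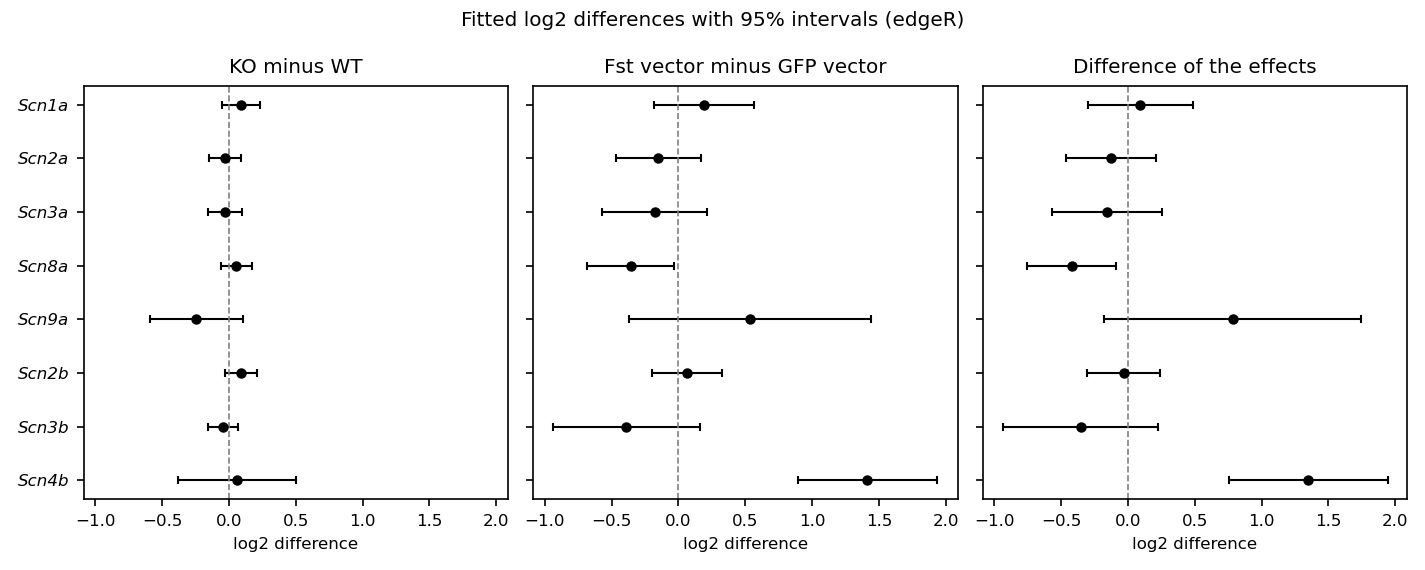
Fitted log2 differences of the 8 genes (points, horizontal axis) with 95% intervals from edgeR, for KO minus WT, Fst vector minus GFP vector, and the second less the first, from left to right. All 8 intervals include 0 for KO minus WT; for the vector groups those of Scn4b (0.89 to 1.94) and Scn8a (-0.69 to -0.03) do not, before any adjustment over genes.

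The Fst vector group was set against the GFP vector group to describe how the vector groups differ. GFP vector mice are labelled KO and Fst vector mice have no stated genotype. Delivered Fst and a difference of genotype therefore cannot be told apart in this comparison. No gene of the 8 passed the adjusted threshold there either, when 12 of 15034 genes tested were called, 0.0798%. With the replicate name as a block, 141 genes were called (0.938%), and again 0 of the 8. Unadjusted p fell under 0.05 for Scn4b and Scn8a, 2 of 8, against 9.51% of genes tested. The same 2 genes had libraries that did not overlap between groups, against 16.5% of genes tested. DESeq2 called 1 of the 8, Scn4b.

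Scn4b had 7.27, 8.61 and 7.20 CPM in Fst vector, from 74, 85 and 65 counts. In GFP vector it had 2.72, 2.92 and 2.77 CPM, from 22, 30 and 29 counts. Each Fst vector library stood above each GFP vector library, and above all 6 KO and WT libraries. Means were 7.69 ± 0.80 CPM in Fst vector and 2.80 ± 0.10 CPM in GFP vector (SD, n = 3 each). Counting error alone would give an SD of 0.541 CPM at the GFP vector level, so the closeness of those 3 values goes beyond what their counts can resolve. Summed over libraries, 224 counts against 81 gave a ratio of 2.74 (exact 95% interval 2.12 to 3.58, for counting error alone). The fitted log2 difference was 1.41 ± 0.23 (SE), an interval of 1.85-fold to 3.83-fold. Its adjusted p by edgeR was 0.102, which misses 0.05.

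The call on Scn4b turned on the fit, while its size did not. Over 14 alternatives the log2 difference stayed between 1.34 and 1.46 and the adjusted p ran from 0.00212 to 0.520. It passed 0.05 in 4 of them: DESeq2 (adjusted p = 0.00228), no filter on low counts (0.00403), sex by title as a term (0.0389), and a fit of all 12 libraries (0.00212). Those fits called 1.66, 0.842, 0.878 and 2.64% of genes tested. With the replicate block the adjusted p rounded to 0.05 without falling under it, and without 1 library at a time it ran from 0.108 to 0.520. Within the libraries of high ribosomal RNA the log2 difference was 1.43 and within those of low it was 1.40, from 1 or 2 libraries a group.

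None of 6 oligodendrocyte markers passed the adjusted threshold for Fst vector against GFP vector. Of the 6, 5 had a positive log2 difference, beside 7674 of 15034 genes tested. The 6 markers summed to 1440 to 1726 CPM in Fst vector and 1076 to 1263 CPM in GFP vector, with 884 to 975 CPM in KO and 905 to 968 CPM in WT. Libraries did not overlap for 4 of the 6, against 16.5% of genes tested. Mbp, the myelin basic protein gene, had 826, 789 and 901 CPM in Fst vector and 610, 670 and 578 CPM in GFP vector. The GFP vector sums lay above those of KO and WT, a step in which the vector and the deposited table cannot be told apart. The 11 interneuron markers summed to 896 to 1037 CPM in Fst vector and 846 to 995 CPM in GFP vector, which overlap. Of the 11, 7 had a positive log2 difference and 4 a negative one, and 0 were called. They ran from -1.28 ± 0.65 for Npy to 0.87 ± 0.29 for Sst. Pvalb had 0.58 ± 0.28, and only Slc32a1, at 0.35 ± 0.16, did not overlap between the groups. The 6 striatal markers summed to 168 to 189 CPM in Fst vector and 182 to 203 CPM in GFP vector, and the 6 thalamic and habenular markers to 45.5 to 64.9 CPM in Fst vector and 44.7 to 48.1 CPM in GFP vector. Of 5 striatal markers tested, 2 were positive and 3 negative (median -0.36), and 1 was lower in Fst vector without overlap. Of 5 thalamic and habenular markers tested, 5 were positive (median 0.12), all with overlap. From these lists 0 were called. The 4 markers of CA1 pyramidal cells summed to 54.1 to 63.4 CPM in Fst vector and 68.0 to 77.5 CPM in GFP vector, without overlap. Of the 4, Fibcd1 had a log2 difference of -2.24 ± 0.53 and Wfs1 one of -0.19, while Mpped1 and Pou3f1 had 0.36 and 0.17, and only Fibcd1 did not overlap between the groups. The part of these cells in the Scn4b difference was not tested.

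Scn2b, the neighbour of Scn4b, had 200, 237 and 230 CPM in Fst vector and 207, 210 and 205 CPM in GFP vector. The Fst vector libraries spanned those of GFP vector, and the log2 difference was 0.06 ± 0.12 (SE; edgeR adjusted p = 0.906; interval 0.870-fold to 1.25-fold). Scn3b had 218, 216 and 194 CPM in Fst vector and 378, 239 and 185 CPM in GFP vector. GFP M1 stood near the KO and WT libraries (367 to 408 CPM), while the other 5 vector libraries were at 185 to 239 CPM. The log2 difference of -0.39 ± 0.24 (edgeR adjusted p = 0.686) rested on that library and was -0.05 ± 0.16 without it.

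Of the pore genes, Scn8a had the lowest unadjusted p between the vector groups. It had 229, 321 and 300 CPM in Fst vector and 364, 340 and 357 CPM in GFP vector. Each Fst vector library was below each GFP vector library, though Fst M2 and GFP M2 were close. The log2 difference was -0.36 ± 0.14 (SE), an interval of 0.622-fold to 0.979-fold, and its adjusted p by edgeR was 0.492. Over 14 alternatives, by edgeR or DESeq2, the log2 difference ran from -0.448 to -0.233 and the adjusted p from 0.099 to 0.777. Without Fst M1, the lowest library, the log2 difference was -0.23 ± 0.11, and within libraries of high and of low ribosomal RNA it was -0.13 and -0.66. The 10 markers of mature granule cells summed to 2141, 1994 and 2076 CPM in Fst vector and 2453, 2172 and 1777 CPM in GFP vector, which overlap. Of the 10, 4 had a positive log2 difference and 6 a negative one, among them Prox1 at -0.35 ± 0.15. Dsp (-1.60 ± 0.54) was lower and Plk5 (0.66 ± 0.45) higher in Fst vector without overlap. The part of granule cells in the Scn8a difference was not tested.

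The other pore genes overlapped between the vector groups. Scn2a had 181, 248 and 224 CPM in Fst vector and 218, 254 and 234 CPM in GFP vector (log2 difference -0.15 ± 0.14). Scn3a had 74.8, 118 and 109 CPM in Fst vector and 118, 119 and 96.8 CPM in GFP vector (-0.18 ± 0.17). For both genes Fst M1 was the lowest of all 12 libraries, and without it the Scn3a difference was -0.01 ± 0.12. Scn1a had 53.6, 83.1 and 66.6 CPM in Fst vector and 60.6, 62.1 and 50.9 CPM in GFP vector (0.19 ± 0.17), and was the only pore gene besides Scn9a with a positive sign. Scn9a had 5.01, 9.92 and 4.32 CPM in Fst vector and 6.19, 4.09 and 2.77 CPM in GFP vector, from 29 to 98 counts. Its log2 difference of 0.53 ± 0.40 had an interval of 0.772-fold to 2.72-fold, and without Fst M2 it was 0.08 ± 0.39. Their adjusted p-values by edgeR lay between 0.736 and 0.798. Over the 8 genes the median log2 difference was -0.04, beside 0.01 over all genes tested.

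The 2 effects were compared directly in a fit of all 12 libraries, taking KO minus WT off the vector difference. None of the 8 passed, when 44 of 15632 genes were called, 0.281%. Unadjusted, Scn4b and Scn8a had p under 0.05, 2 of 8, against 9.95% of genes tested. Scn4b had a difference of 1.35 ± 0.28 (log2, SE) with an adjusted p of 0.0640 by edgeR. With the replicate block it was 1.36 ± 0.31 and called, with an adjusted p of 0.0434. Over 18 alternatives its adjusted p ran from 0.0198 to 0.187 and passed 0.05 in 4, the others being DESeq2 (0.0198), library totals (0.0489) and the fit without GFP M1 (0.0484). With the block 1.85% of genes were called, and 1.57, 0.313 and 1.15% in the other 3. Scn8a had -0.42 ± 0.16 (adjusted p = 0.349). The remaining 6 ranged from -0.35 for Scn3b to 0.78 for Scn9a, with adjusted p-values of 0.604 to 0.961.

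Means of 7 of the 8 genes were lower in the vector libraries than in the untreated ones. The share of all genes with a lower vector mean was not counted, so the 7 cannot be set against it. All 6 vector libraries lay below all 6 untreated libraries for Scn2a, Scn3a and Scn8a, 3 of 8 genes, against 4.25% of 15632 genes tested. Scn8a ranged from 229 to 364 CPM with vector and 448 to 489 CPM without, a ratio of means of 0.678. Scn2a ranged from 181 to 254 CPM with vector and 284 to 340 CPM without (0.729), and Scn3a from 74.8 to 119 CPM with vector and 138 to 158 CPM without (0.722). Scn3b had a ratio of 0.613, with GFP M1 alone among the untreated values. Scn9a had 0.574, Scn1a 0.823 and Scn2b 0.857, each with overlap. Scn4b, at 1.13, was split: relative to KO its GFP vector mean was 0.595-fold, and its Fst vector mean was 1.68-fold that of WT. KO is the labelled genotype of the GFP vector mice. None is given for the Fst vector mice, so WT may not be a matched reference for them. The vector and the deposited table cannot be told apart in these ratios, and no test was made across the tables.

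Among the pore transcripts, the shares of Scn8a and Scn1a did not overlap between the vector groups. Levels in CPM did not overlap for 16.5% of all genes tested in that comparison, and Scn1a was not among those genes. Scn8a made up 36.3, 35.4 and 36.8% of the summed pore level per length in Fst vector, and 41.5, 37.9 and 42.3% in GFP vector. Scn1a made up 12.1, 13.0 and 11.6% in Fst vector and 9.78, 9.79 and 8.53% in GFP vector. For both genes the 3 Fst vector libraries lay outside the range of the other 9, which was 37.9 to 42.7% for Scn8a and 8.53 to 10.5% for Scn1a. Shares of Scn2a, Scn3a and Scn9a overlapped between the vector groups. The summed level itself was 49.7 ± 9.00 CPM per kb in Fst vector and 55.4 ± 1.69 in GFP vector, and 73.5 ± 3.05 in KO and 73.7 ± 1.27 in WT (SD, n = 3 each). Within the beta genes Scn4b made up 1.76 ± 0.10% in Fst vector and 0.614 ± 0.12% in GFP vector, and 0.750 ± 0.08% in KO and 0.729 ± 0.02% in WT. Shares sum to 100% within a library, so a rise of one lowers others, and no test was made on them.

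**Figure D3:**
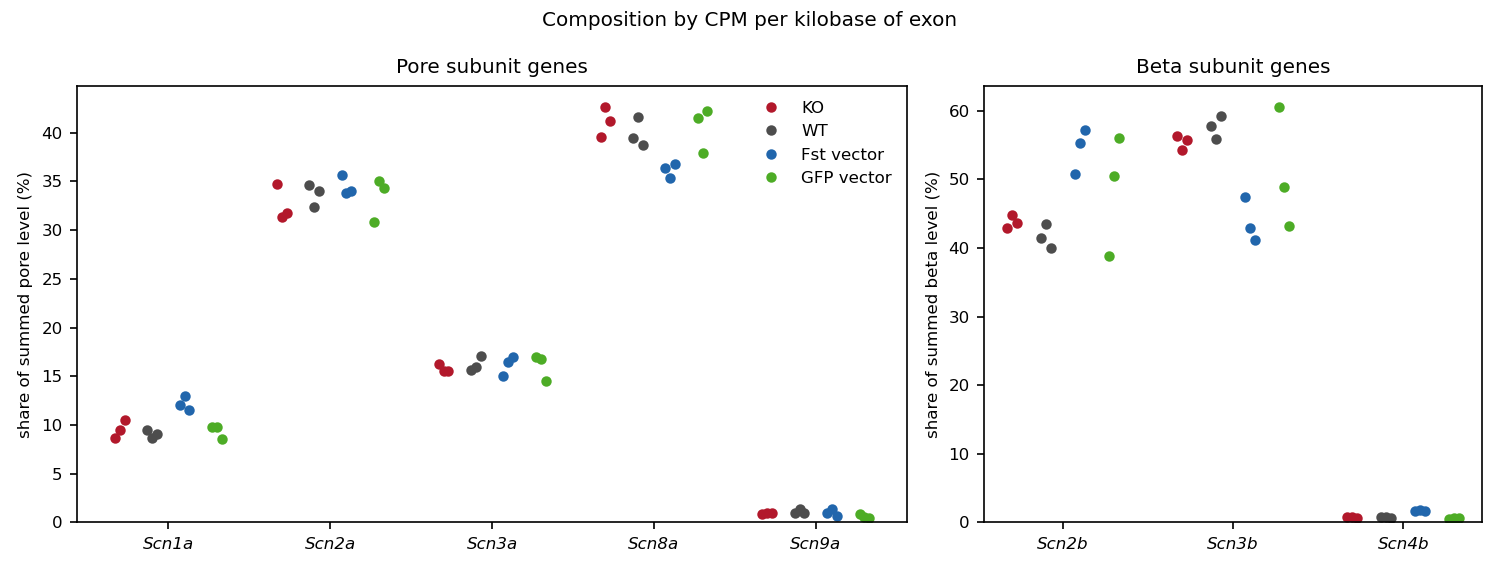
Share of each gene in the summed CPM per kilobase of exon of its class (vertical axis, percent, from 0), 5 pore genes on the left and 3 beta genes on the right; each point is a library and colours give the group. Fst vector points stand apart for Scn1a (11.6 to 13.0%), Scn8a (35.4 to 36.8%) and Scn4b (1.67 to 1.87%).

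Of 4 further sodium channel genes, 1 was tested and it was not called. Scn7a, a sodium-sensing relative of the pore subunits, had 3.01, 5.35 and 4.16 CPM in KO and 5.56, 2.79 and 2.74 CPM in WT (log2 difference 0.20 ± 0.28). It had 1.37, 4.46 and 3.54 CPM in Fst vector and 3.46, 4.19 and 2.29 CPM in GFP vector (-0.13 ± 0.43). Its libraries, with 14 to 53 counts each, overlapped in both comparisons. Scn4a, Scn10a and Scn11a, of muscle and sensory neurons, had 0 to 4 counts in each library, against a floor of 3 counts.

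Genes that place or tune these channels were read from lists, and 0 passed the adjusted threshold in either comparison. All 10 anchors of the axon initial segment and nodes had a positive log2 difference for KO against WT (9 with scaling by library totals), with a median of 0.08 and a range of 0.01 to 0.15, beside a median of -0.00085 over all genes. The pan-neuronal markers leaned the same way, with 6 of 8 positive, a median of 0.07 and sums of 4157 to 4261 CPM in KO and 3952 to 4152 CPM in WT, without overlap. Their part in the anchor values was not tested. Kcnq3, a potassium channel held by ankyrin G, had 0.14 ± 0.06 (edgeR adjusted p = 0.808), Nfasc, the neurofascin gene, 0.15 ± 0.08 and Ank3, which encodes ankyrin G, 0.09 ± 0.06. For Fst vector against GFP vector 3 of the 10 were positive and 7 negative, with a median of -0.14. Kcnq3 had 101, 133 and 127 CPM in Fst vector and 200, 151 and 142 CPM in GFP vector, without overlap (-0.49 ± 0.17, adjusted p = 0.408). Nfasc and Cntn1, an axonal adhesion gene, had -0.45 ± 0.27 and -0.32 ± 0.20. Both were highest in GFP F, and without that library they had -0.14 ± 0.22 and -0.21 ± 0.21.

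The sodium leak channel complex had 3 of 4 genes positive for KO against WT and 4 of 4 negative for Fst vector against GFP vector (2 with scaling by library totals). Nalcn, its pore, had 100, 104 and 111 CPM in KO and 122, 125 and 113 CPM in WT, without overlap (-0.17 ± 0.06; edgeR adjusted p = 0.688). Fam155a, an auxiliary subunit, had 80.6, 75.7 and 82.7 CPM in Fst vector and 99.6, 102 and 105 CPM in GFP vector, also without overlap (-0.39 ± 0.11, adjusted p = 0.275). Unc80, a scaffold of the complex, had 0.11 ± 0.06 for KO against WT, higher in KO without overlap, and -0.17 ± 0.17 for Fst vector against GFP vector. Libraries did not overlap for 11% of all genes tested for KO against WT and for 16.5% for Fst vector against GFP vector. Fam155a had 0.12 ± 0.07 for KO against WT, and Unc79, another scaffold, -0.02 ± 0.14 for Fst vector against GFP vector. Of the 4 fibroblast growth factor homologous factors, which bind the tail of the pore subunit, 2 were positive in each comparison. Fgf13 had -0.32 ± 0.14 for Fst vector against GFP vector (adjusted p = 0.516) and Fgf11 had 0.25 ± 0.13 for KO against WT and -0.45 ± 0.32 for Fst vector against GFP vector. Fgf14 had 0.15 ± 0.10 and 0.15 ± 0.20 in the same 2 comparisons, and Fgf12 -0.08 ± 0.09 for KO against WT.

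Other regulators were split, 5 of 9 positive for KO against WT and 4 of 9 for Fst vector against GFP vector. Nedd4l, a ubiquitin ligase that takes channels off the membrane, had 210, 221 and 242 CPM in Fst vector and 342, 308 and 252 CPM in GFP vector. The groups did not overlap, though Fst F and GFP F were close (-0.46 ± 0.14, edgeR adjusted p = 0.367). Camk2d, a calcium-dependent kinase gene, averaged 20.5 ± 1.72 CPM in KO and 16.4 ± 0.36 CPM in WT (SD, n = 3 each), without overlap (0.34 ± 0.11, adjusted p = 0.616). It had 19.2, 28.7 and 33.4 CPM in Fst vector and 22.6, 52.8 and 59.6 CPM in GFP vector, which overlap (-0.77 ± 0.37). Without GFP F, the highest library, the log2 difference was -0.52 ± 0.37, and without GFP M1 it was -1.09 ± 0.22. L1cam, an adhesion gene, had 0.12 ± 0.09 for KO against WT and 0.45 ± 0.18 for Fst vector against GFP vector. Ptprz1, a receptor phosphatase, had -0.08 ± 0.06 for KO against WT.

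**Figure D4:**
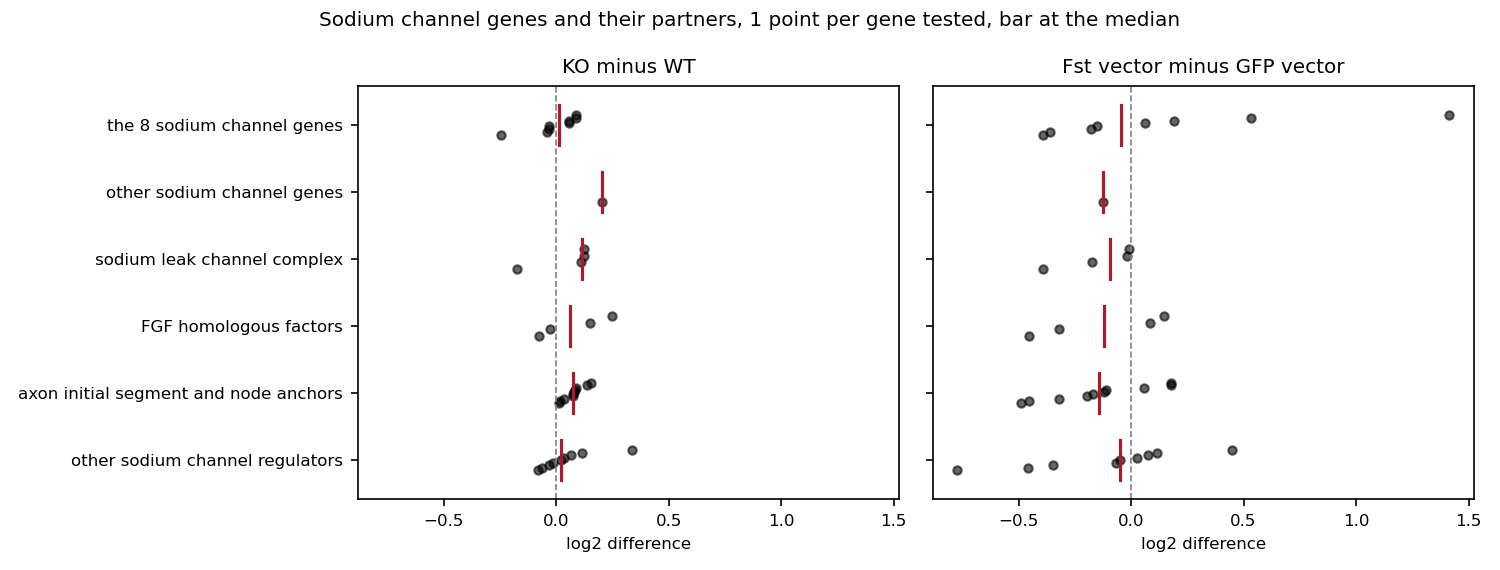
Log2 differences (horizontal axis) of the genes tested in each list, 1 point per gene and a red bar at the median, for KO minus WT and Fst vector minus GFP vector. With the scaling plotted, the 10 anchors all lie right of 0 for KO minus WT (0.01 to 0.15; 9 do with library totals) and reach from -0.49 to 0.18 between the vector groups, where Scn4b at 1.41 is the rightmost point.

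Over the 12 libraries, each gene was matched to the gene outside these lists whose log2(CPM + 1) followed it most closely, among 11522 genes with a mean of at least 5 CPM. Pearson's r was 0.995 for Scn8a with Zbtb20, 0.991 for Scn3b with Gmnc, 0.987 for Scn3a with Celf2, 0.978 for Scn2a with Brwd3, 0.960 for Scn1a with Dync2h1, 0.958 for Scn9a with Phf2 and 0.954 for Scn2b with Dbndd1. Scn4b fell below that level on average and was not matched. These are descriptions of 12 points that share 2 tables and the step between vector and untreated libraries.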

How the data were processed

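Libraries were made from total RNA of the dentate gyrus. What the authors deposited, per the file headers, are raw read counts by Ensembl gene, with KO and WT in one table and both vector groups in another. The submitters' processing notes name GRCm38; neither they nor the labels give an aligner, counter, annotation or strand setting. Lines that name no gene, 6 and 12, held no counts. GENCODE on GRCm38 gave exons, and symbols for 52403 of 52636 genes.

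Each table was fitted alone with edgeR 4.0.16 (quasi-likelihood, TMM, filterByExpr, robust; R 4.3.3), with Benjamini-Hochberg adjustment over all genes tested. The SE is the log2 difference over the square root of F. DESeq2 1.42.0 and other fits were alternatives, and the edgeR fits were tested on simulated data. The simulation gave every gene the same spread and no library a shift of its own. It therefore does not show how the fits behave with replicates as uneven as these. Replicates differed by more than sampling noise in all 12 pairs (chi-square of 2.39 to 31.5 per degree of freedom). Same-named libraries of the vector groups deviated together (r = 0.325 for M1, 0.138 for M2 and 0.39 for F), above the bound of 0.1 used for pairing. The fits printed have no block unless one is named. No label states a pairing, and Fst M2 with GFP M1 also reached 0.119.

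The genes, lists and tests were chosen with earlier results of these data known. Named are all 8 genes and, from each other list, the 3 genes of smallest p in a comparison. A few genes of those lists are not reported here.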

Additional observations from a re-analysis of the deposited data

How the results depend on the processing

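Genes called for KO against WT numbered 4. They were 46 with no filter, 23 with the replicate block, 30 with sex by title, 9 with the ribosomal RNA share as a term and 1 in the fit of 12 libraries, and 2 to 17 without 1 library. For Fst vector against GFP vector the 12 calls became 250 with DESeq2, 230 with no filter, 141 with the block, 132 with sex and 412 in the fit of 12 libraries, and 1 to 29 without 1 library. For the difference of the effects the 44 calls became 246 with DESeq2, 210 with no filter, 289 with the block and 80 with sex, and 13 to 183 without 1 library. Scn4b was the only one of the 8 genes called in any of these fits. The fit of 12 libraries also called Fam155a and Nedd4l (edgeR adjusted p = 0.0236 and 0.0361, the lowest over the alternatives, with 0.771 and 0.788 the highest). Between KO and WT the same-named libraries correlated at 0.0607 for M1, 0.13 for F1 and -0.0805 for M2. Only the F1 pair passed the bound of 0.1, and KO M1 with WT M2, of different names, reached 0.178. The block there joins libraries that share a name and the sex given in it, and no label states a pairing.

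Among genes with unadjusted p under 0.05, 49.5% were higher in KO, against 34.4% with library totals, 45.7% were higher in Fst vector, against 56.8%, and 43.3% had a positive difference of the effects, against 61.7%.

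Some log2 differences near 0 changed sign, none of them called, and the cause was not tested. With library totals the difference of the effects for Scn2b was 0.029, and Unc79 had 0.022 for Fst vector against GFP vector. Without 1 library, KO against WT ran from -0.11 to 0.017 for Scn2a, -0.083 to 0.011 for Scn3a, -0.047 to 0.16 for Scn4b and -0.014 to 0.61 for Scn7a. Without 1 library, Fst vector against GFP vector ran from -0.47 to 0.23 for Scn7a, -0.091 to 0.10 for Unc79 and -0.71 to 0.013 for Fgf11. The difference of the effects ran from -0.074 to 0.23 for Scn1a, -0.28 to 0.013 for Scn3a and -0.087 to 0.033 for Scn2b. Per kilobase of the longest transcript, means were 8.3 CPM for Scn1a, 30.0 for Scn2a, 13.2 for Scn3a, 34.5 for Scn8a and 75.6 for Scn3b. Values within classes of ribosomal RNA were added after seeing the data. Scn9a and Scn4b, at 22 to 120 counts, limit what can be resolved.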
